A study of Mus musculus with 2 samples.

Results

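HuR, which Elavl1 encodes, binds RNA and is controlled after it is made by enzymes that modify it and by proteins that bind it in the nucleus. Described here are the transcripts of 8 such genes: the arginine methyltransferase gene Carm1, the kinase genes Chek2, Prkca, Prkcd and Mapk14, and the genes Anp32a, Anp32b and Set, whose products bind HuR in the nucleus. They were chosen by name for their reported action on HuR. All 8 were found, by a symbol match in GENCODE mouse release M21, among the 20505 genes listed in both expression tables. The cells were primary hepatocytes of C57BL/6 mice, released from the liver with type II collagenase and grown in DMEM with 5% FBS. One culture carried an adenovirus for HuR and the other, the control, an adenovirus for β-galactosidase (β-Gal, a bacterial enzyme). Infection ran overnight, so both groups were infected, and no uninfected culture is among the samples. Each group was 1 library of total RNA, and the number of mice is not given in the sources used here.

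In other studies, mostly of human cells, HuR shuttles between nucleus and cytoplasm, and where it sits and which mRNAs it holds depend on these partners. CARM1 methylates an arginine in the hinge that HuR uses for shuttling. CHK2, a kinase of the DNA damage response, phosphorylates HuR and changes its grip on bound mRNAs, while protein kinase C alpha and delta (Prkca, Prkcd) and the stress kinase p38 alpha (Mapk14) phosphorylate it and favour its presence in the cytoplasm. ANP32A, ANP32B and SET are acidic nuclear proteins that bind HuR. ANP32A and SET also inhibit protein phosphatase PP2A, and the ANP32 proteins link HuR to the export receptor CRM1. The values here are transcript levels, which do not measure kinase activity or the modification of HuR.

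HuR itself binds U-rich stretches, mostly in 3′ untranslated regions, so the most T-rich stretch of 25 bases in the longest annotated 3′ untranslated region was read for each of the 8 genes from GENCODE M21 (GRCm38). Shown are those of Anp32b and Set, the most T-rich of the 8, of Chek2, the gene that differed most between the libraries, and of Prkcd, the least T-rich. Capitals mark runs of 3 or more T, written 5′ to 3′ on the mRNA strand. The letters alone do not show that HuR binds there.
Anp32b, chr4:46472546-46472570, plus strand: TTTcTTTTTTTTTTTcTTTcTTTTT
Set, chr2:30071683-30071707, plus strand: TTTTTcTTTTTTTTTTTTTTTTTTT
Chek2, chr5:110873630-110873654, plus strand: TTTTTTTTatatgtatataTTTTTT
Prkcd, chr14:30595671-30595695, minus strand: ctgTTTgtgaaTTTgccttcccTTT

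The Anp32b stretch held 22 T in 25 bases, and 1.21% of 1078 regions of like length (0.8 to 1.2 times its own) among compared genes had a stretch at least as T-rich. The Set stretch held 24 T, matched or passed in 1.96% of 1633 regions of like length. The Chek2 stretch held 19 T, a richness reached by 9.63% of like regions, and the Prkcd stretch held 13, reached by 76.1%. The pentamer TTTTT, counted on the mRNA strand with overlaps, occurred 38 times in the 1635 bases of Set and 11 times in the 503 bases of Anp32b. At least as many were present in 1.35% of regions of like length for Set and in 4.08% for Anp32b, and 76.4% of the regions of all compared genes held at least 1. Prkca had 33 in 6129 bases, Anp32a 12, Chek2 and Carm1 6 each, and Prkcd and Mapk14 1 each. The AU-rich pentamer ATTTA was rarer. Prkca held 8, Set 2 and Mapk14 1, and none was found in the other 5, while 68.1% of the 11053 regions of compared genes held at least 1. Among regions of like length, 69.0% held at least as many as Prkca, 65.6% as Set and 90.5% as Mapk14. For the genes with none, the share of like regions with at least 1 was 53.4% for Chek2, 50.2% for Prkcd and 49.7% for Anp32b. It was 77.8% for Anp32a and 80.0% for Carm1. The longer AU-rich element TTATTTATT, which contains ATTTA, was in none of the 8 and in 7.83% of the regions of all compared genes.

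The tables give FPKM, fragments scaled by transcript length and by library size, and steps in the values implied 17671387 reads for the HuR library and 18357017 reads for the β-Gal library. Intervals in parentheses are 95% counting intervals on reads recovered from those steps. They cover counting error only. Neither group has a second library, so differences have no replicate check and no p-value is given. Elavl1 itself stood at 4480 FPKM in the library labelled HuR, against 9.67 FPKM in the β-Gal library. The value may include transcripts of the virus. Hepatocyte markers were abundant in both libraries, with albumin (Alb) at 27642 FPKM in HuR and 25353 FPKM in β-Gal. Of 11 such markers, Cps1, a urea cycle enzyme gene, was the 1 past 2-fold, at only 3.17 FPKM in HuR and 8.41 FPKM in β-Gal, and Apob stood at 69.3 FPKM in HuR and 137 FPKM in β-Gal. The 12905 genes that reached 1 FPKM in either library were compared. The HuR library had 5.35% of them higher by 2-fold or more and 8.31% lower by as much, on a log2 scale with a pseudocount of 1 FPKM. The median log2 fold change of all of them was -0.17.

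All 8 genes had at least 1 FPKM in both libraries. On the same scale 1 of them, Chek2, was at least 2-fold lower in the HuR library and 0 were at least 2-fold higher. The share of all compared genes at least 2-fold lower was 8.31%, so 1 gene of 8 does not set them apart. At a threshold of 1.5-fold on that scale, Prkcd was the 1 gene higher and Chek2 the 1 gene lower, beside 12.0% and 23.4% of all compared genes. Prkca, 1.51-fold lower as a plain ratio, fell short of 1.5-fold with the pseudocount. Log2 fold changes lay below 0 for 6 of the 8 and above 0 for 2, with a median of -0.40, where 60.7% of all compared genes lay below 0. As deposited, the 3 nuclear ligands differed least between the libraries. Carm1, Prkca and Mapk14 were lower by like amounts as deposited, but not once the GC and length trend was removed (log2 fold changes of -0.54, -0.02 and -0.37). Removing the trend also set the overall median of the fold changes to 0. That centring alone left these genes alike, at -0.35, -0.35 and -0.38. With that trend removed Prkca also differed less than Anp32a (-0.08) and Anp32b (0.26). Chek2 was lowest, and Prkcd was the one enzyme that was higher.

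**Figure D1:**
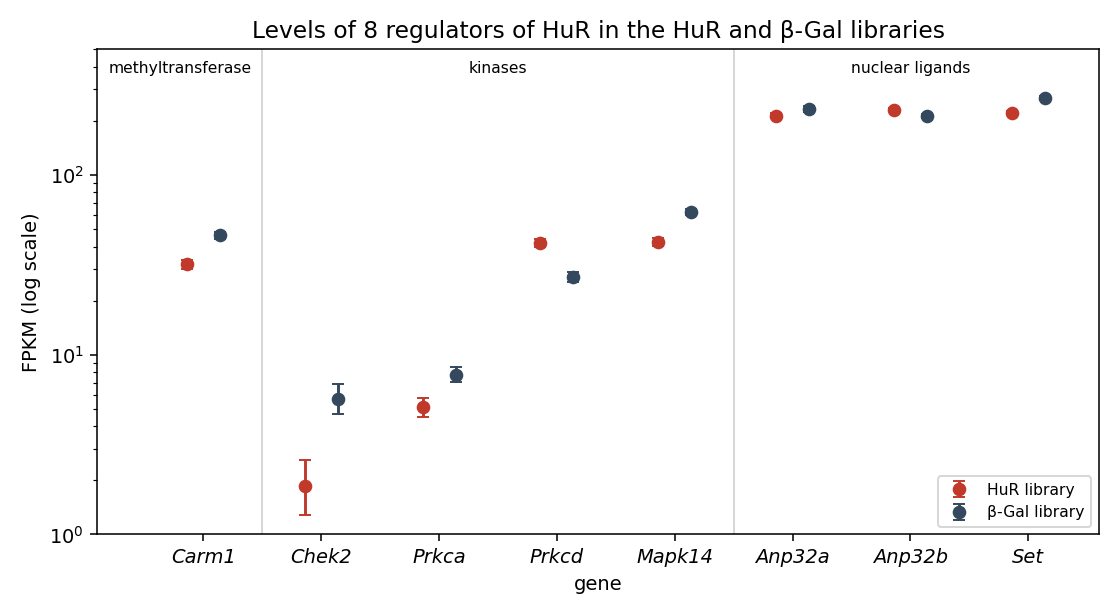
FPKM (log scale) of each gene in the HuR library (left point of each pair) and the β-Gal library (right point), 1 library each, with 95% Poisson counting intervals. Chek2 stood at 1.86 FPKM in HuR and 5.68 FPKM in β-Gal, whereas Anp32a, Anp32b and Set lay in the highest tier in both.

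Carm1 (chromosome 9, 21546894 to 21592623, plus strand, GRCm38) encodes the arginine methyltransferase that acts on HuR and on histone H3. It stood at 31.9 FPKM in the HuR library and 46.2 FPKM in the β-Gal library. That was 1.45-fold lower in HuR (1.34 to 1.56), a log2 fold change of -0.52. Of all compared genes, 27.3% had a lower log2 fold change. Exons of Carm1 share 1025 bases, 21.1% of its exon bases, with Yipf2 on the opposite strand. Yipf2 was at 8.20 FPKM in HuR and 10.5 FPKM in β-Gal, and without a stated strand setting the reads of the pair cannot be told apart.

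Chek2 (chromosome 5, 110839979 to 110874145, plus strand) encodes CHK2, which is activated by the kinase ATM at DNA breaks. It stood at 1.86 FPKM in the HuR library and 5.68 FPKM in the β-Gal library from 34 reads in HuR and 108 reads in β-Gal. Without a pseudocount Chek2 was 3.06-fold lower in HuR (2.06 to 4.64), so the counting interval lay wholly beyond 2-fold. Its log2 fold change with the pseudocount was -1.23, and 4.39% of compared genes had a lower one. With a pseudocount of 5 FPKM it was -0.64, short of 2-fold. Of its 6 annotated transcripts, 3 carried stretches of up to 148 bases that match at least 240 other genes at 95% identity or more. The search kept a limited number of matches per transcript, so the full number may be larger. Hscb, a mitochondrial co-chaperone gene that starts on the opposite strand 201 bases away, stood at 15.97 FPKM in HuR and 16.6 FPKM in β-Gal.

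Prkca (chromosome 11, 107933387 to 108343928, minus strand) and Prkcd (chromosome 14, 30595354 to 30626210, minus strand) encode a classical, calcium-dependent and a calcium-independent protein kinase C. Prkca stood at 5.12 FPKM in the HuR library and 7.75 FPKM in the β-Gal library, 1.51-fold lower in HuR (1.30 to 1.77). Prkcd stood at 42.0 FPKM in HuR and 27.2 FPKM in β-Gal, 1.55-fold higher in HuR (1.42 to 1.69). These kinases thus lay on opposite sides of their β-Gal values. The ratio of Prkcd to Prkca was 8.21 in the HuR library and 3.50 in the β-Gal library, 2.34 times as large in HuR (1.97 to 2.79 by counting error). Prkca has the longest transcripts of the 8 genes. Its log2 fold change was -0.52 as deposited and -0.35 with fold changes centred on the overall median. It came to -0.02 once the trend with GC content and transcript length was removed and the median set to 0. Its exons share 30 bases with Apoh, an opposite-strand gene at 1012 FPKM in HuR and 847 FPKM in β-Gal.

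Markers of Kupffer cells, the macrophages of the liver, were higher in the HuR library along with Prkcd, a gene also expressed in myeloid cells. Of 8 compared markers, 4 were at least 2-fold higher and 0 lower, beside 5.35% and 8.31% of all compared genes. The summed level of all 12 listed markers was 147 FPKM in HuR and 67.9 FPKM in β-Gal, and none was at 0, although Adgre1, Csf1r, Vsig4 and Timd4 were under 1 FPKM in both. Cd68 made up most of both sums, which without it were 57.0 FPKM in HuR and 28.0 FPKM in β-Gal. Clec4f, the marker most restricted to Kupffer cells, stood at 1.54 FPKM in HuR and 1.13 FPKM in β-Gal. Their part in the Prkcd value was not tested. In bulk RNA more cells of a type and more RNA per cell cannot be told apart. Stellate cell markers went the other way, at a summed 1.67 FPKM in HuR and 12.0 FPKM in β-Gal over 8 markers. The 4 that were compared reached 1 FPKM in the β-Gal library alone, so that they had to be lower in HuR. Lrat and Pdgfrb were at 0 in HuR, but with only 1 read and 7 reads in β-Gal. Cholangiocyte markers summed to 88.4 FPKM in HuR and 79.9 FPKM in β-Gal, with 3 of 7 compared lower and 1 higher. Spp1 set that direction, since without it the sums were 16.5 FPKM in HuR and 29.1 FPKM in β-Gal. Of the 7, 2 reached 1 FPKM in β-Gal alone and 1 in HuR alone. Endothelial markers summed to 22.3 FPKM in HuR and 16.9 FPKM in β-Gal, with 1 of 6 higher. That marker was Eng, without which the sums were 11.8 FPKM in HuR and 12.9 FPKM in β-Gal. Flt4 stood at 1.54 FPKM in HuR and 3.87 FPKM in β-Gal. Lymphocyte and blood markers summed to 2.19 FPKM in HuR and 10.2 FPKM in β-Gal, and the 3 compared reached 1 FPKM in β-Gal alone. Without Igkc the sums were 1.34 FPKM in HuR and 4.81 FPKM in β-Gal. Cd79a, under 1 FPKM in both, went the other way, at 0.854 FPKM in HuR and 0.187 FPKM in β-Gal. Nkg7, at 1 read in β-Gal, Hba-a1 and Hbb-bs were at 0 in HuR, whereas no gene is listed at 0 in the β-Gal table.

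Mapk14 (chromosome 17, 28691329 to 28748406, plus strand) encodes p38 alpha, a kinase switched on by stress and cytokines. It stood at 42.5 FPKM in the HuR library and 62.3 FPKM in the β-Gal library, 1.47-fold lower in HuR (1.38 to 1.56). The ratio of its fold to that of Carm1 and of Prkca could not be told from 1 by counting error in the values as deposited. Carm1's fold was 1.01 times that of Mapk14 (0.919 to 1.12) and Prkca's 0.970 times (0.822 to 1.14). Chek2 differed from Mapk14 beyond counting error, with a fold 0.480 times as large (0.325 to 0.710).

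Anp32a and Anp32b encode leucine-rich acidic nuclear phosphoproteins, and Set encodes a histone chaperone with an acidic tail. Anp32a (chromosome 9, 62341293 to 62378812, plus strand) stood at 214 FPKM in the HuR library and 233 FPKM in the β-Gal library, 1.09-fold lower in HuR (1.04 to 1.14). Anp32b (chromosome 4, 46450902 to 46472657, plus strand) stood at 232 FPKM in HuR and 213 FPKM in β-Gal, 1.09-fold higher (1.05 to 1.13). Set (chromosome 2, 30057378 to 30072577, plus strand) stood at 222 FPKM in HuR and 269 FPKM in β-Gal, 1.22-fold lower (1.17 to 1.26). These differences were beyond counting error, but whether they exceed the spread between cultures cannot be known from 1 library each. The sign for Anp32a turned, to a log2 fold change of 0.04, when fold changes were centred on the overall median. Set came to -0.11 under that centring and to -0.01 with the GC and length trend removed, while Anp32b stayed above 0 at 0.29 and 0.26. All 7 Set transcripts match pseudogenes at 95% identity or more, 11 of them in all, of which 2 were listed. One, Gm9531, stood at 34.0 FPKM in HuR and 37.0 FPKM in β-Gal, so reads may be divided between it and Set. Anp32a has 1 such pseudogene, Anp32-ps, at 0.438 FPKM in HuR and 0.140 FPKM in β-Gal, and Anp32b has none.

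**Figure D2:**
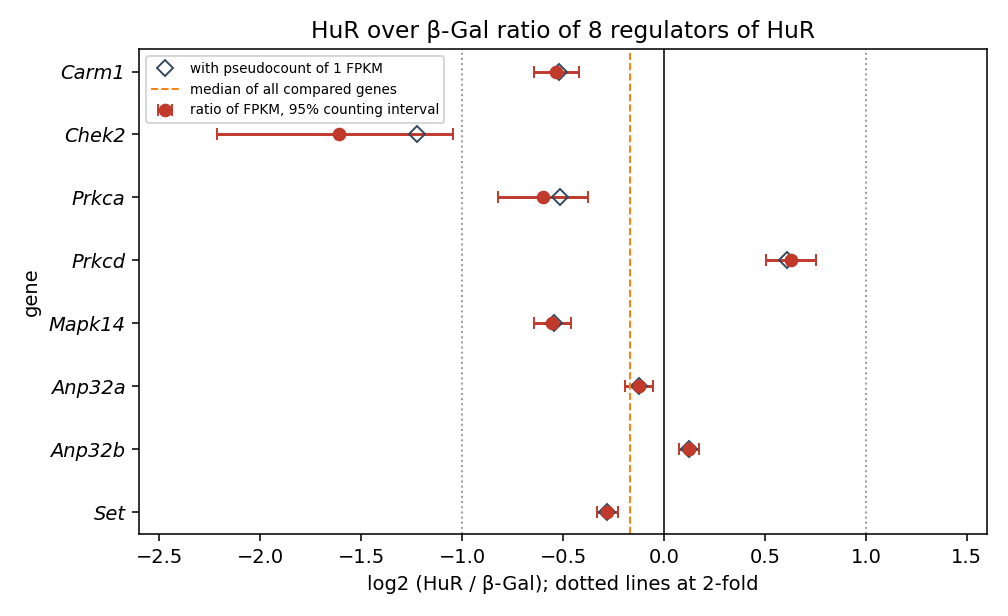
Log2 ratio of the HuR over the β-Gal library for each gene, as the plain ratio of FPKM with its 95% counting interval (filled) and with a pseudocount of 1 FPKM (open). Chek2 lies beyond the dotted 2-fold line, Prkcd (0.61) and Anp32b (0.12) lie above 0, and the dashed line is the median of all compared genes at -0.17.

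By level, the genes fell into the same 3 tiers in both libraries. The ligands were highest, Mapk14, Carm1 and Prkcd were intermediate, and Prkca and Chek2 were lowest. In the HuR library the order was Anp32b, Set, Anp32a, Mapk14, Prkcd, Carm1, Prkca and Chek2. There Anp32b and Set, Set and Anp32a, and Mapk14 and Prkcd could not be ordered, since their counting intervals on the FPKM scale overlapped. In the β-Gal library the order was Set, Anp32a, Anp32b, Mapk14, Carm1, Prkcd, Prkca and Chek2, with the intervals of all neighbours apart. FPKM depends on the transcript length used. With the longest annotated transcript in place of the mean, Anp32b led in both libraries, at 232 FPKM in HuR and 213 FPKM in β-Gal. Anp32a was then at 83.2 FPKM in HuR and 90.7 FPKM in β-Gal, because most of its 10 annotated transcripts are short. The tiers stayed the same, but in the HuR library Prkcd, at 26.7 FPKM, passed Mapk14, at 25.4 FPKM.

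The 3 ligands together made up 667 FPKM in the HuR library and 715 FPKM in the β-Gal library, and the 5 enzymes together 123 FPKM in HuR and 149 FPKM in β-Gal. Elavl1 differed far more than these sums. The level of Elavl1 was 6.71 times the summed ligands in the HuR library and 0.0135 times in the β-Gal library. Put the other way, ligand transcripts stood at 0.149 per Elavl1 transcript in HuR and 74.0 in β-Gal on the FPKM scale. These ratios rest on the annotated length of Elavl1, and the length of the viral transcript is not given in the sources used here.

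Relatives and partners of the 8 genes were examined in 6 lists chosen from what is known of the pathways. Of 83 genes in them, 70 were compared. At 2-fold or more, 3 of the 70 (4.29%) were higher and 7 (10.0%) lower, beside 5.35% and 8.31% of all compared genes. The other arginine methyltransferases had 0 of 6 compared members past 2-fold and a median log2 fold change of -0.29. Prmt1 and Prmt8, also in that list, were not found among the genes with values. Prmt2 was the lowest, at 8.66 FPKM in HuR and 16.0 FPKM in β-Gal. Prmt7 stood at 43.1 FPKM in HuR and 54.3 FPKM in β-Gal, and Prmt6 at 2.08 FPKM in HuR and 2.77 FPKM in β-Gal.

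**Figure D3:**
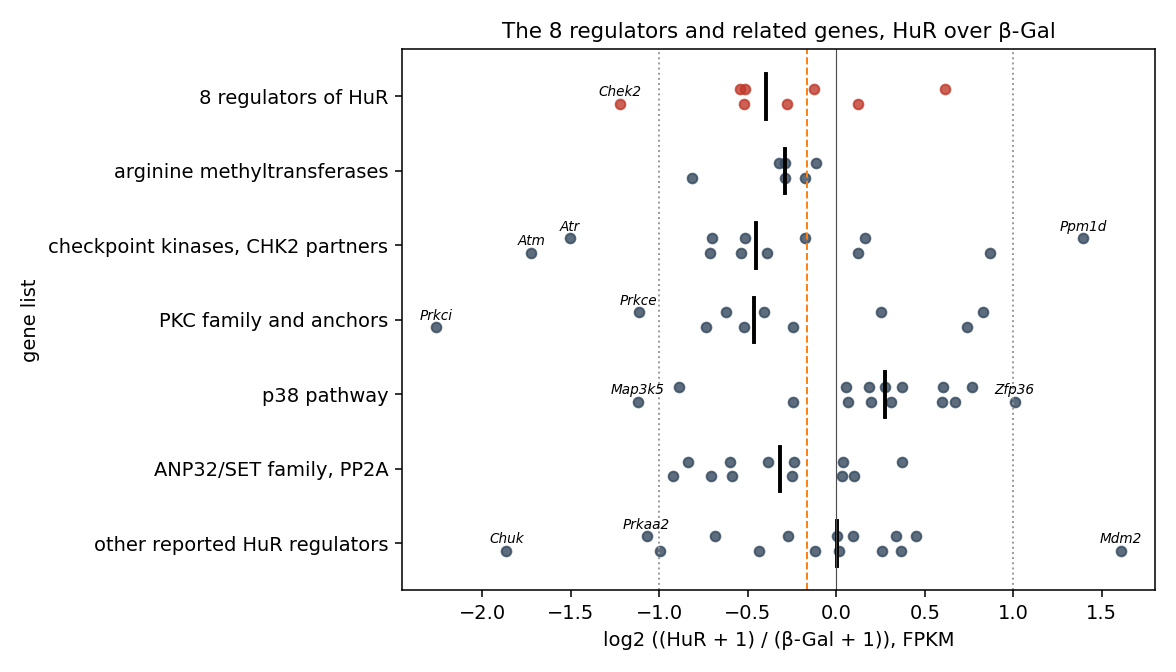
Log2 fold change of HuR over β-Gal with a pseudocount of 1 FPKM, 1 point per gene, for the 8 regulators and 6 lists of related genes. Black bars are list medians, the dashed line is the median of all compared genes (-0.17), dotted lines mark 2-fold and genes beyond it are named.

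Among checkpoint kinases and partners of CHK2, 2 of 12 compared genes were lower by 2-fold or more and 1 was higher by as much. Their median was -0.46. Atm, the kinase that activates CHK2, stood at 1.71 FPKM in HuR and 7.93 FPKM in β-Gal, 4.65-fold lower (3.80 to 5.77). Atr, which answers stalled replication, stood at 2.48 FPKM in HuR and 8.87 FPKM in β-Gal, 3.58-fold lower (2.96 to 4.34). Ppm1d, a phosphatase induced by p53 that dephosphorylates CHK2 and ATM, went the other way, at 22.6 FPKM in HuR and 7.99 FPKM in β-Gal (2.83-fold higher, 2.46 to 3.27). Both large kinase mRNAs are AT-rich and long, and with the GC and length trend removed Atm was at a log2 fold change of -1.05 and Atr at -0.78, the second no longer past 2-fold. Chek2 was at -1.07 under the same change, still past it.

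Of the protein kinase C family and its anchors, 2 of 10 compared were lower by 2-fold or more and 0 were higher by as much. Their median was -0.47. Prkci, the atypical isoform of cell polarity, had the lowest log2 fold change of the 6 lists. It stood at 29.3 FPKM in HuR and 144 FPKM in β-Gal, 4.93-fold lower (4.55 to 5.34), and was still at -1.94 on the log2 scale with the GC and length trend removed. On the FPKM scale Prkci was the most abundant PKC isoform gene compared in the β-Gal library, while Prkcd was the most abundant in the HuR library. Prkce, a calcium-independent isoform like Prkcd, stood at 2.76 FPKM in HuR and 7.16 FPKM in β-Gal, 2.59-fold lower (2.10 to 3.22), but its log2 fold change was short of 2-fold with the GC and length trend removed (-0.90), after centring (-0.95) and at a pseudocount of 5 FPKM (-0.65). Pkn3, a PKC-related kinase gene, stood at 8.52 FPKM in HuR and 4.36 FPKM in β-Gal.

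The p38 pathway list had 1 of 15 compared genes at least 2-fold higher and 1 lower. Its median was 0.27, and 12 of the 15 lay above 0, beside 39.3% of all compared genes, whereas Mapk14 itself lay at -0.54. Of the 12, Mapk12 reached 1 FPKM in the HuR library alone, so that it had to lie above 0. With 1 FPKM required in both libraries the list median was 0.24. Zfp36, which encodes the mRNA decay factor tristetraprolin, a substrate of the p38-activated kinase MK2, stood at 27.8 FPKM in HuR and 13.3 FPKM in β-Gal (2.09-fold higher, 1.90 to 2.30). Map3k5, the stress kinase ASK1 upstream of p38, stood at 26.5 FPKM in HuR and 58.9 FPKM in β-Gal (2.22-fold lower, 2.06 to 2.40). Its log2 fold change was short of 2-fold with the GC and length trend removed (-0.90) and after centring (-0.96). Dusp10, a phosphatase that acts on p38, stood at 39.0 FPKM in HuR and 73.2 FPKM in β-Gal. The other p38 isoform genes were scarce, with Mapk11, Mapk12 and Mapk13 each under 3 FPKM in both libraries.

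Relatives of the ligands and subunits of PP2A had 0 of 12 compared members past 2-fold and a median of -0.32. Xpo1, which encodes CRM1, stood at 18.3 FPKM in HuR and 35.7 FPKM in β-Gal, 1.95-fold lower (1.81 to 2.10). Its log2 fold change of -0.93 came to -0.20 with the GC and length trend removed. Anp32e, the third expressed family member, stood at 24.1 FPKM in HuR and 39.9 FPKM in β-Gal. Cip2a, an inhibitor of PP2A like SET, stood at 0.934 FPKM in HuR and 2.47 FPKM in β-Gal. It reached 1 FPKM in the β-Gal library alone, so that it had to be lower in HuR. With 1 FPKM required in both libraries the list median was -0.25.

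Other reported regulators of HuR had 1 of 15 compared members higher by 2-fold or more and 2 lower by as much. Their median was 0.00. Mdm2, a ubiquitin ligase reported to conjugate NEDD8 to HuR, stood at 232 FPKM in HuR and 75.5 FPKM in β-Gal, 3.07-fold higher (2.93 to 3.22). Chuk, the kinase IKK alpha, stood at 10.3 FPKM in HuR and 40.3 FPKM in β-Gal, 3.90-fold lower (3.42 to 4.45). Prkaa2, a catalytic subunit of the energy sensor AMPK, stood at 2.89 FPKM in HuR and 7.18 FPKM in β-Gal (2.49-fold lower, 2.22 to 2.79), but at -0.22 on the log2 scale with the GC and length trend removed.

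**Figure D4:**
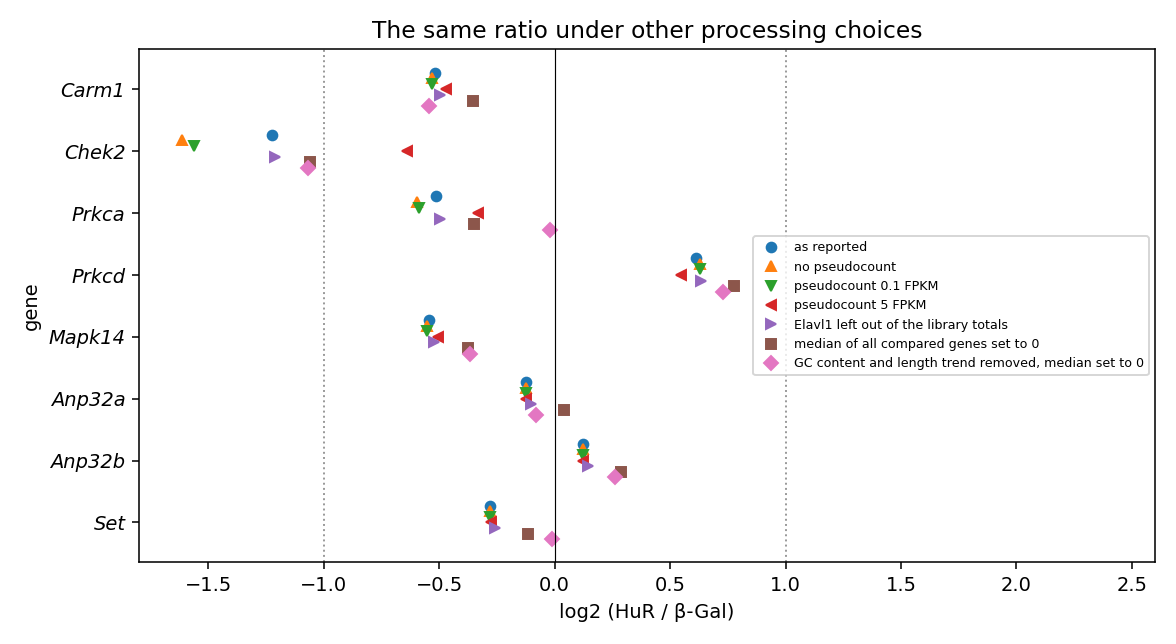
Log2 ratio of HuR over β-Gal for each of the 8 genes under 7 processing settings, 1 symbol per setting, with dotted lines at 2-fold. Chek2 runs from -1.61 to -0.64 and Prkca from -0.60 to -0.02, while Prkcd stays between 0.55 and 0.78.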

How the data were processed

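The authors deposited 1 FPKM value per gene for each library. Per the submitters' processing notes, TopHat2, HTSeq 0.6.1 and GRCm38 were used, with no role or order stated. Nothing used here gives the annotation release, FPKM calculation, library kit, strand setting or filters. A value of 0 was listed for 0 genes in β-Gal and 2233 genes in HuR, so genes found in the HuR library alone are not analysed here. Identifiers were matched to GENCODE M21 (20133 of 20505). Reads were recovered as FPKM times mean transcript length times a total read from the steps of genes with 1 transcript. In both libraries 73.3% of genes with a length, and 5 of the 8 genes described, lay within 0.02 of a whole read. Reads of Carm1, Prkcd and Mapk14 are estimates. So are those of Prmt2, Atm, Atr, Map3k5, Zfp36 and Mdm2 in both libraries and of Elavl1 in HuR. Intervals that rest on such reads are approximate. Fold changes are log2((HuR + 1)/(β-Gal + 1)), on genes reaching 1 FPKM in either library, a scale that understates changes of low genes. Folds in parentheses are plain ratios with exact Clopper-Pearson intervals, tried only on simulated counts drawn with the same lengths and totals. Such counts cannot test wrong lengths, reads shared between genes or the spread between cultures. Ratios of folds have log-normal intervals. The GC and length trend was a cubic fit over all compared genes, and the values left after its removal were centred on their median. From each list the 3 genes with the largest absolute log2 fold change were named, with others added after their values were seen. Matching transcripts were sought with blastn 2.17.0 (at least 95% identity over 100 bases). Python 3.11.15, scipy 1.17.1 and statsmodels 0.14.6 were used. The genes and lists were chosen with earlier results of these data known.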

Additional observations from a re-analysis of the deposited data

How the results depend on the processing

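Each value was recomputed with pseudocounts of 0.1 and 5 FPKM, without a filter, with at least 1 FPKM in both libraries, with fold changes centred on their overall median, with Elavl1 left out of the library totals, and with the GC and length trend removed. Removing the trend also set the overall median to 0. Calls at 1.5-fold were also made. The ratio without a pseudocount and the longest transcript length were added after seeing the data. The count of the 8 genes at least 2-fold lower was 0 at a pseudocount of 5 FPKM, because Chek2 fell short, and 1 under every other setting. The count at least as much higher was 1 (Prkcd) with the threshold at 1.5-fold, where 12.0% of all genes were higher, and 0 otherwise. The median log2 fold change of the 8 genes was -0.40 as reported, -0.23 after that centring and -0.050 with the GC and length trend removed. The cause was not tested. Higher genes were 39.2% of all calls as reported, 59.3% after the centring and 60.4% with the trend removed. Since the trend removal includes centring, these settings are not separate checks. Over all genes, 691 were higher and 1072 lower as reported, against 260 and 330 at a pseudocount of 5 FPKM and 1035 and 1762 at 0.1 FPKM. The lower count was 660 after the centring and 486 with the trend removed, and the higher count was 421 with 1 FPKM required in both libraries. In the lists, lower calls among checkpoint genes were 2 as reported, 0 at a pseudocount of 5 FPKM and 1 with the trend removed. Lower calls in the PKC list and among other HuR regulators were 2 each as reported and 1 each under a pseudocount of 5 FPKM, the centring and the trend removal. The p38 list had 0 lower calls after the centring and the trend removal, 0 higher calls at a pseudocount of 5 FPKM and 2 at 0.1 FPKM or without one. The added higher call was Mapk12, which reached 1 FPKM in HuR alone. Higher checkpoint calls were 2 after the centring, and the PP2A list had 1 lower call at 0.1 FPKM or without a pseudocount. That lower call was Cip2a, which reached 1 FPKM in β-Gal alone. Calls at 1.5-fold were more numerous in most lists, up to 5 higher in the p38 list and 5 lower in the PP2A list. Of the 8 genes, Anp32a alone changed sign under any of these settings. No paired analysis was possible because each group has 1 library, and for the same reason no replicate could be left out. Chek2 rests on 34 reads in HuR and 108 reads in β-Gal, which sets the width of its interval.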
